A study of Caenorhabditis elegans with 15 samples.

Results

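The genes described here encode the large heat shock chaperones of the nematode Caenorhabditis elegans, taken by the cell compartment in which their proteins work. Probe sets were chosen where the array annotation gave 1 of 10 listed gene names. This found 14 probe sets for 9 genes, out of 17118 genes with a probe set of their own symbol: 4 cytosolic genes (hsp-1, hsp-70, hsp-90 and hsp-110), 3 genes of the endoplasmic reticulum (hsp-3, hsp-4 and enpl-1) and 2 mitochondrial genes (hsp-6 and hsp-60). The tenth name, daf-21, is an older name of hsp-90 and stood on no probe set. The genes hsp-90, hsp-110, enpl-1, hsp-6 and hsp-60 each had 2 probe sets, called brighter and dimmer here by their mean signal. No sequence of these genes was used here.

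Whole wild-type worms (strain N2) were grown at 20 °C on agar with OP50 bacteria, exposed for life and collected on day 1 of adulthood, and RNA of each biological replicate was hybridised to 1 single-channel Affymetrix array. The 5 groups held 3 arrays each: a water control, a control with Z-medium (the growth medium given as control of the culture), Lake Stößensee water of August, water of the same lake of October, and Microcystis aeruginosa, a cyanobacterium, grown in batch culture. The lake filtrates were given at 200% and the culture filtrate at 40% of their original content of AOBr, which usually abbreviates adsorbable organic bromine. No group carried a mutation or transgene. Whether the 2 controls were filtered and lyophilised as the exposures were is not given, and any effect of that handling cannot be told apart from the exposure.

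HSP70, HSP90 and HSP60 proteins use the energy of ATP to fold new proteins and refold damaged ones. Each compartment has its own set, and each set has its own alarm: damaged protein in the cytosol activates the transcription factor HSF-1, while the unfolded protein responses of the endoplasmic reticulum and of mitochondria raise hsp-4 and the pair hsp-6 and hsp-60, which are widely used as reporters of these responses in worms. Most members are also made in abundance without stress, whereas hsp-70 is known as a strongly heat-inducible gene.

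Signal is the linear probe set intensity as deposited, scaled by the authors to 1 common level per array, and changes were fitted on its log2. A filter at the 40th percentile of mean log2 signal (57.9 on the linear scale) left 13529 probe sets, which were tested with limma, and a probe set was called at a Benjamini-Hochberg adjusted p under 0.05 over all of them. All 14 chaperone probe sets passed that filter, hsp-70 only through its replicate 1 arrays. Of the 14, 7 (hsp-70, hsp-3, hsp-4, both sets of hsp-60 and the dimmer sets of hsp-90 and hsp-110) are of the type that the array maker marks as shared by several transcripts, so near-identical transcripts may add to their signal. Marker genes of sperm, oocytes, cuticle, intestine and body wall muscle were looked up, 32 with a probe set of their own symbol. All passed the filter except the sperm genes spe-38 and spe-9, with highest signals of 45.2 and 86.3. No detection calls are given, so whether each marker was present was not tested. The replicate 1 arrays stood apart from the others across groups: 2451 probe sets, or 18.1% of those tested, were called between replicate 1 and replicates 2 and 3. The labels name no batch for them. In whole worms, fewer cells of a type and less RNA per cell cannot be told apart. The labels call the arrays of a group biological replicates, and the p values of the group comparisons measure the spread between them. The p values for replicate 1 rest on the spread left after the group means and the replicate 1 term. They count the replicate 1 arrays of different groups as separate units, although these arrays share a replicate number.

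None of the 9 chaperone genes was called in any exposure. Against water, 0 of 14 probe sets were called for August lake water by limma, where 0.00739% of all probe sets were, and 0 for October, where 0% were. Against Z-medium, 0 of 14 were called for the culture, where 1.54% of all probe sets were. At an unadjusted p under 0.05 there was 1 of 14 in each of these comparisons: the dimmer set of hsp-90 in August, the brighter set of hsp-110 in October and the dimmer set of hsp-6 in the culture. Over all probe sets that share was 3.05%, 2.11% and 15.2%. The median log2 change over the 9 genes, on the brighter set of each, was 0.02 in August, -0.02 in October and 0.01 in the culture, beside medians of -0.01, 0.00 and 0.00 over all probe sets tested. A p that misses the threshold does not show equal levels, so the 95% intervals of the fitted changes are given below.

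Among the cytosolic genes, hsp-1, which encodes the constitutive HSP70 (HSC70) of the worm, gave signals of 12448, 12740 and 12495 in water and 12448, 13172 and 12133 in Z-medium. They were 13324, 12394 and 12529 in August, 13219, 11883 and 11874 in October and 14333, 13712 and 12077 in the culture. All groups overlapped for hsp-1, with the highest array in the culture and the lowest in October. Its log2 changes were 0.02 ± 0.07 (SE) in August, -0.03 ± 0.07 in October and 0.08 ± 0.07 in the culture (limma adjusted p = 1.00, 1.00 and 0.604). The interval in the culture ran from 0.953-fold to 1.18-fold.

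The gene hsp-90 encodes the cytosolic HSP90, which matures kinases and receptors among other client proteins. Its brighter probe set gave 12019, 12482 and 12368 in water, 12403, 12623 and 12361 in August and 12465, 12220 and 11908 in October. In Z-medium it gave 12210, 12910 and 12372, and in the culture 13760, 12264 and 11767. The highest and the lowest array were both in the culture, and every group overlapped every other. The log2 changes were 0.02 ± 0.06 in August, -0.01 ± 0.06 in October and 0.01 ± 0.06 in the culture, with intervals of 0.923-fold to 1.11-fold, 0.903-fold to 1.09-fold and 0.916-fold to 1.105-fold.

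The dimmer probe set of hsp-90 gave another picture for August. It gave 9062, 8932 and 8141 in water and 9890, 10314 and 10137 in August, so the 3 August arrays lay above the 3 water arrays. This was so, in either direction, for 7.19% of all probe sets. Its log2 change was 0.22 ± 0.07, or 1.05-fold to 1.28-fold, which did not pass (limma adjusted p = 1.00). The Z-medium arrays (9313, 10052 and 9183) also lay above the water arrays (log2 difference 0.13 ± 0.07, adjusted p = 1.00). The culture, at 10228, 9422 and 9369, overlapped Z-medium. The 2 probe sets of hsp-90 correlated at r = 0.508 over the 15 arrays, given as a description of arrays that share groups and replicate numbers.

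The gene hsp-110 encodes an HSP110 protein, a nucleotide exchange factor for HSP70. Its brighter probe set was the most variable of the abundant members, with 3129, 4994 and 3825 in water and 4827, 4273 and 4749 in August. It gave 5732, 5314 and 4920 in October, 5371, 5262 and 3812 in Z-medium and 5068, 6092 and 4876 in the culture. The lowest array of all was replicate 1 of water, and 1 water array lay among the October arrays. The log2 change of October against water was 0.44 ± 0.15, or 1.08-fold to 1.71-fold, which did not pass (limma adjusted p = 1.00). In August it was 0.24 ± 0.15 and in the culture 0.16 ± 0.15. The unexposed Z-medium group also lay above water on average (log2 difference 0.28 ± 0.15), which did not pass either. Water had the lowest mean of the 5 groups on this probe set. The 3 October arrays lay above the 3 August arrays (log2 difference 0.20 ± 0.15, adjusted p = 1.00), as 3.69% of all probe sets did.

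The dimmer probe set of hsp-110 spread far less. It gave 3717, 3759 and 3789 in water, 3706, 3708 and 3646 in August and 3996, 3519 and 3701 in October, with a log2 change of -0.01 ± 0.06 for October. In Z-medium it gave 3645, 3586 and 3593, and in the culture 4104, 3899 and 3733. The culture arrays lay above the Z-medium arrays, as in 7.85% of all probe sets, with a log2 change of 0.12 ± 0.06 (adjusted p = 0.402 in limma). The October difference of the brighter set was thus not seen on the dimmer one, and over the 15 arrays the 2 sets correlated at only r = 0.236.

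**Figure D1:**
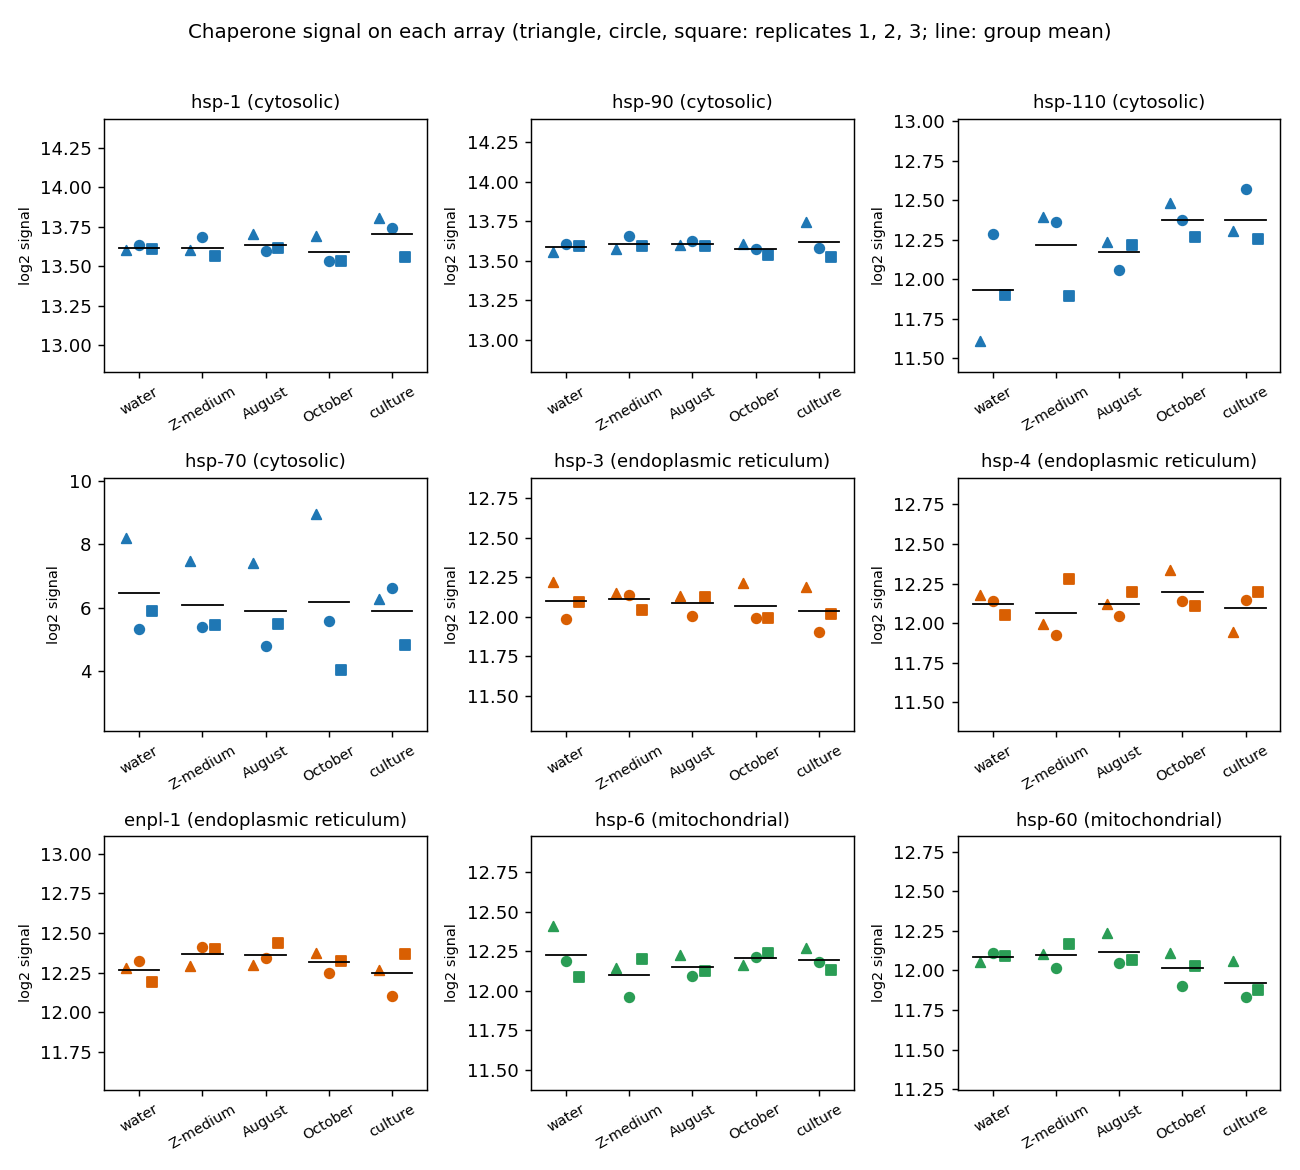
Log2 signal of each chaperone gene on each array, on its brighter or only probe set (triangles, circles and squares are replicates 1, 2 and 3; lines are group means of 3 arrays; colours are compartments). The axes of 8 genes span the same number of log2 units and that of hsp-70 spans more; for hsp-70 the triangles of water, Z-medium, August and October stand far above the other arrays.

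In the endoplasmic reticulum, hsp-3 and hsp-4 encode the 2 BiP proteins, the HSP70s of that compartment. The signal of hsp-4, which the unfolded protein response of the endoplasmic reticulum is known to raise, was 4625, 4510 and 4247 in water and 4449, 4226 and 4695 in August. It was 5179, 4511 and 4423 in October, 4079, 3883 and 4977 in Z-medium and 3947, 4534 and 4691 in the culture. Every exposed group overlapped its control. The log2 changes of hsp-4 were 0.00 ± 0.10 in August, 0.07 ± 0.10 in October and 0.03 ± 0.10 in the culture (limma adjusted p = 1.00, 1.00 and 0.912). The widest upper bound of the 3 intervals was 1.22-fold, in October.

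The gene hsp-3 gave 4766, 4054 and 4374 in water, 4498, 4108 and 4462 in August and 4758, 4075 and 4083 in October. In Z-medium it gave 4553, 4505 and 4223, and in the culture 4674, 3832 and 4140. In 5 of 5 groups the replicate 1 array was the highest, in August only at 4498 against 4462. The share of all probe sets with this order was not counted. Its log2 changes by exposure were -0.01 ± 0.09, -0.03 ± 0.09 and -0.07 ± 0.09 in August, October and the culture.

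The third gene of the endoplasmic reticulum, enpl-1, encodes endoplasmin, the HSP90 of that compartment (GRP94). Its brighter set gave 4979, 5129 and 4680 in water, 5032, 5204 and 5540 in August and 5319, 4871 and 5135 in October. It gave 5014, 5459 and 5399 in Z-medium and 4918, 4395 and 5288 in the culture. The culture lay lower than Z-medium on average but overlapped it (log2 change -0.12 ± 0.08, adjusted p = 0.456 in limma). The dimmer set had 0.05 ± 0.15 in the same comparison. The 2 sets of enpl-1 did not rise and fall together over the 15 arrays, with r = -0.426 (Spearman -0.271), which was not tested.

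In mitochondria, hsp-6 encodes the HSP70 (mortalin) and hsp-60 the HSP60 chaperonin, both known to rise in the mitochondrial unfolded protein response. The brighter set of hsp-6 gave 5439, 4678 and 4355 in water, 4799, 4379 and 4467 in August and 4580, 4762 and 4832 in October. It gave 4521, 3986 and 4718 in Z-medium and 4933, 4653 and 4497 in the culture. All groups overlapped, with log2 changes of -0.08 ± 0.09, -0.02 ± 0.09 and 0.09 ± 0.09 in August, October and the culture. The dimmer set gave 839, 934 and 754 in Z-medium and 809, 630 and 682 in the culture, a log2 change of -0.25 ± 0.12 of the other sign (limma adjusted p = 0.321). The 2 sets correlated at r = -0.059.

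The brighter set of hsp-60 gave 4256, 4425 and 4368 in water, 4827, 4231 and 4286 in August and 4428, 3830 and 4184 in October. In Z-medium it gave 4395, 4140 and 4594 and in the culture 4276, 3638 and 3758, and 1 culture array lay within the Z-medium range. The log2 change in the culture was -0.17 ± 0.08, the smallest p of the 9 genes there on the brighter sets (limma adjusted p = 0.329), and its dimmer set had 0.12 ± 0.12. In August and October the brighter set had 0.03 ± 0.08 and -0.07 ± 0.08. For both mitochondrial genes the 2 probe sets had opposite signs in the culture.

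**Figure D2:**
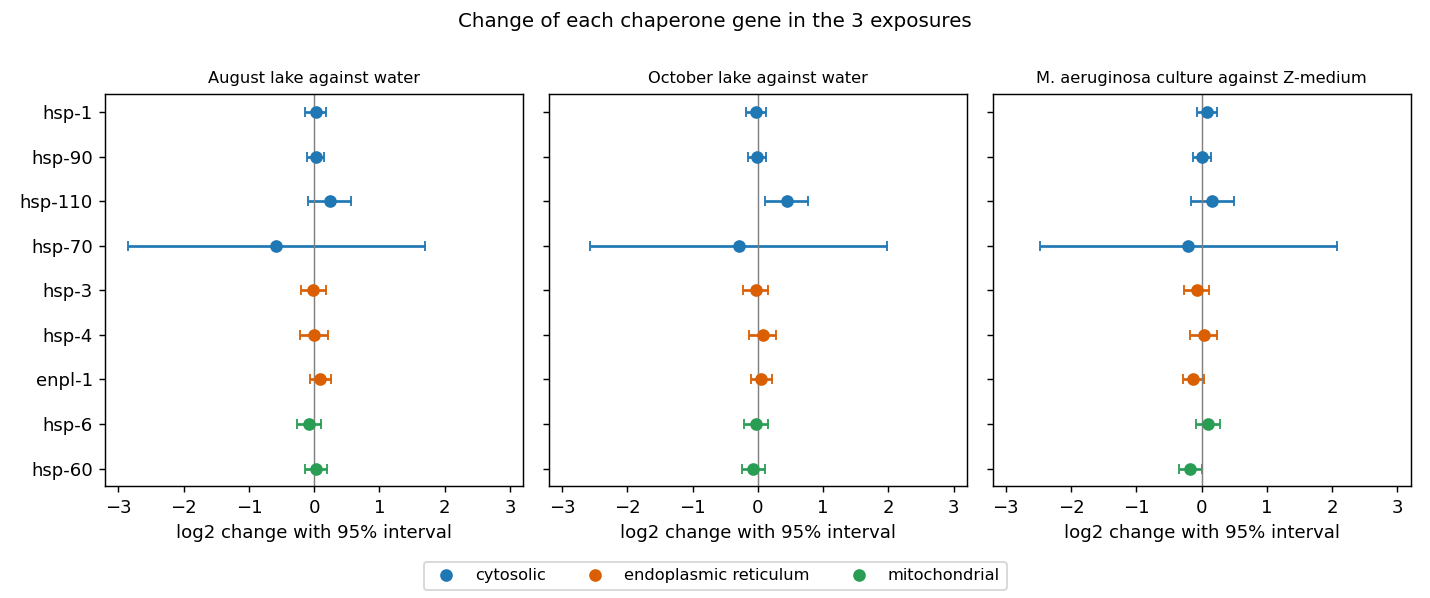
Log2 change of each chaperone gene (points) with its 95% interval from the limma fit (bars), on the brighter or only probe set, in August and October lake water against water and in the culture against Z-medium, 3 arrays against 3. Every interval spans 0 except that of hsp-110 in October, and hsp-70 has by far the widest intervals.

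Leaving hsp-70 aside, the other 8 genes on their brighter sets had changes bounded within a narrow range. Over these 8 genes the 95% intervals reached from 0.833-fold (hsp-6) to 1.48-fold (hsp-110) in August. They reached from 0.844-fold (hsp-60) to 1.71-fold (hsp-110) in October and from 0.787-fold (hsp-60) to 1.40-fold (hsp-110) in the culture. A change of 2-fold therefore lay outside the interval of each of these 8 genes in each exposure, also on the 5 dimmer sets, whose lowest bound was 0.704-fold for hsp-6 in the culture. For hsp-70 the data were far less precise: the interval in August ran from 0.138-fold to 3.24-fold.

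The comparisons among controls and between effects gave the same count. Of the 14 probe sets, 0 were called between October and August lake water (0.0148% of all), 0 between Z-medium and water (0.0222%) and 0 when the average lake change was subtracted from the culture change (0.266%). These 3 comparisons also had 0 of 14 at an unadjusted p under 0.05 in limma, where 2.59%, 2.34% and 8.54% of all probe sets had one. The smallest p for the difference between the culture and lake effects was that of enpl-1 on its brighter set, with a log2 difference of -0.20 ± 0.10 (limma adjusted p = 0.628). The October and August comparisons share the water arrays.

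Counted by arrays that do not overlap, 3 against 3, hsp-90 and hsp-110 supplied every case among the 14 probe sets. In August 2 of 14 did not overlap water, the dimmer hsp-90 set higher (3.33% of all probe sets) and the dimmer hsp-110 set lower (3.87%). In October it was 0 of 14, where 7.56% of all probe sets did not overlap, 3.75% higher and 3.81% lower. In the culture it was 1 of 14, the dimmer hsp-110 set, against 19.1% of all probe sets, of which more lay lower (11.3%) than higher. Culture calls by limma also leaned lower, at 1.19% of all probe sets.

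Between the lake samples 2 of 14 did not overlap, the brighter hsp-110 set with October higher and the dimmer hsp-90 set with October lower (3.86%), beside 7.55% of all probe sets in either direction. Between the controls it was 2 of 14 as well, the dimmer sets of hsp-90 with Z-medium higher (3.43%) and of hsp-110 with Z-medium lower (3.29%), beside 6.72% in all.

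By compartment, the log2 signals of the genes were centred on each gene's mean over the 15 arrays and averaged per array. No test was made of these means, since the genes were chosen as a set. The 3 cytosolic genes other than hsp-70 averaged -0.10 ± 0.13 (SD, n = 3) in water, 0.00 ± 0.11 in Z-medium, -0.01 ± 0.04 in August, 0.03 ± 0.07 in October and 0.08 ± 0.11 in the culture. The water value rests on hsp-110, since hsp-1 and hsp-90 stayed within 1.08-fold and 1.03-fold between the highest and the lowest group. With hsp-70 included, the 4 cytosolic genes averaged 0.01 ± 0.29 in water and 0.01 ± 0.32 in the culture, so that hsp-70 set the spread.

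The endoplasmic reticulum genes averaged -0.01 ± 0.06 in water, 0.01 ± 0.05 in Z-medium, 0.02 ± 0.06 in August, 0.02 ± 0.10 in October and -0.04 ± 0.07 in the culture. The mitochondrial pair averaged 0.05 ± 0.07, -0.01 ± 0.10, 0.02 ± 0.09, 0.00 ± 0.04 and -0.05 ± 0.09 in the same order. In each compartment the arrays of every exposed group overlapped those of its control. The mean change in the culture was 0.01 for the 4 cytosolic genes (0.08 without hsp-70), -0.06 for the endoplasmic reticulum and -0.04 for mitochondria. The last pair of signs turned, to 0.05 and 0.07, when arrays were scaled to equal medians, which shifted the median of all probe sets in that comparison from 0.00 to 0.11.

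**Figure D3:**
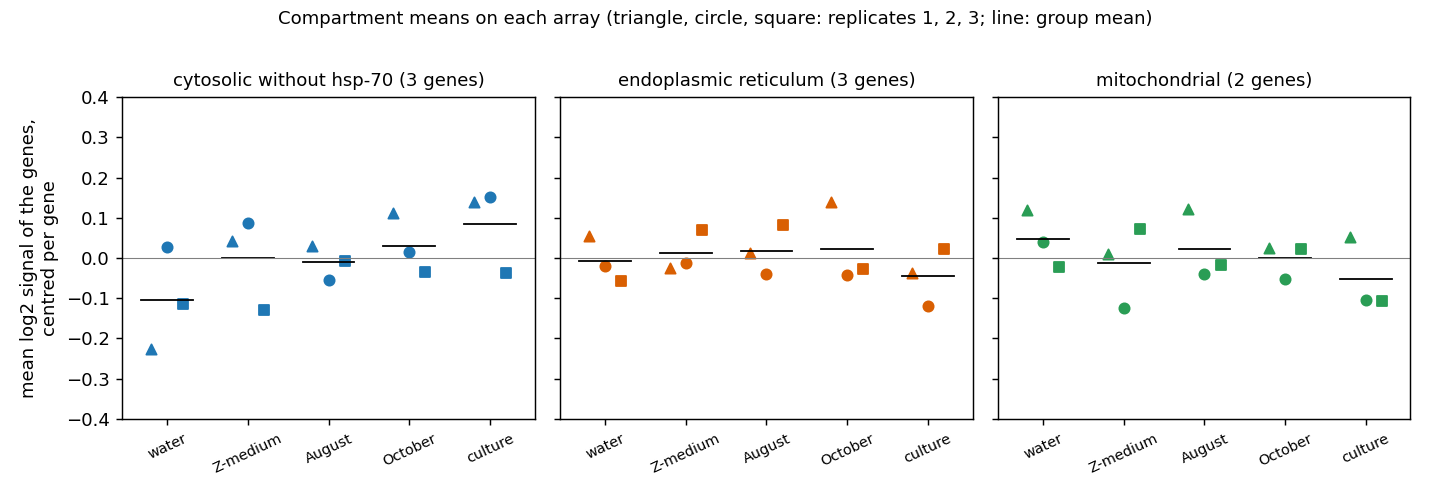
Mean over the genes of a compartment of log2 signal, centred per gene on its mean over the 15 arrays, for each array (triangles, circles and squares are replicates 1, 2 and 3; lines are group means of 3 arrays). The cytosolic panel leaves out hsp-70; all points lie between -0.23 and 0.15 on the log2 scale, and the exposed groups overlap their controls in each panel.

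The heat-inducible gene hsp-70 differed by replicate number and passed the test in no exposure. Its signal was 293, 40.0 and 60.1 in replicates 1, 2 and 3 of water, 176, 41.4 and 44.1 in Z-medium, 172, 27.5 and 44.9 in August and 496, 47.6 and 16.23 in October. In these 4 groups the replicate 1 array was always the highest, at 172 to 496 against 16.23 to 60.1 on the 8 other arrays, with no overlap. These 4 groups were picked out after the values were seen, and the share of all probe sets separated this way was not counted. With the culture included, the replicate 1 arrays overlapped the others. In the culture the signals were 76.8, 97.8 and 28.3, with replicate 2 the highest. The signal lay below the filter level of 57.9 on 8 of 15 arrays, and the files give no detection calls, so the level of those arrays is uncertain.

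Across all 5 groups, the fitted difference of hsp-70 between replicate 1 and replicates 2 and 3 was 2.32 ± 0.39 on the log2 scale (limma adjusted p = 0.000604). Its geometric mean was 202 in replicate 1 and 40.4 in the others, so it entered the tested probe sets through the arrays in which it was high, and this p is no independent support. Over the settings that tested it, no filter among them, the highest limma adjusted p was 0.00634. These settings use the same arrays, so this value is no independent support either. In the 4 groups without the culture the geometric mean of replicate 1 was 258, or 4.45-fold the filter level, below which 7 of the 8 other arrays lay. The replicate 1 difference in the culture minus that in the other 4 groups was -2.22 ± 0.83 on the log2 scale and did not pass (limma adjusted p = 0.407), so it was not shown to differ. That test was chosen after the values were seen.

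With a term for replicate 1 in the fit, the interval of the hsp-70 change narrowed to 0.285-fold to 1.58-fold in August, 0.347-fold to 1.92-fold in October and 0.370-fold to 2.05-fold in the culture. The fitted log2 changes stayed at -0.58, -0.29 and -0.20, and none passed (adjusted p = 0.982, 1.00 and 0.884). Since its probe set is of the shared type, signal from near-identical HSP70 copies cannot be told apart from that of hsp-70. The copies F44E5.4 and F44E5.5 have no probe set of their own symbol.

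Of the other chaperones, hsp-3 alone was called between replicate 1 and the rest, with a log2 difference of 0.15 ± 0.05 (limma adjusted p = 0.0291). Thus 2 of the 9 genes were higher in replicate 1, where 10.8% of all probe sets were, and 0 were lower, where 7.36% were, a count that takes in hsp-70 with the limit given above. At an unadjusted p under 0.05 it was 3 of 14 probe sets, with the dimmer set of hsp-6 added (0.17 ± 0.06), beside 31.3% of all. In 0 of 14 sets did the 5 replicate 1 arrays clear all 10 others, beside 1.97% of all, 1.01% higher. The hsp-3 call ended when arrays were scaled to equal medians (0.07, adjusted p = 0.392), without an intensity trend (adjusted p = 0.0632), without water replicate 1, October replicate 1 or culture replicate 1, and without water replicate 2 or October replicate 3. The values of hsp-6 and hsp-60 were 0.10 ± 0.05 each (adjusted p = 0.214 and 0.170) on their brighter sets. The fitted difference of hsp-70 ran from 1.86 to 2.77 on the log2 scale over the settings that tested it.

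Some tissue markers differed between replicate 1 and the rest too. Of 5 sperm markers tested, 4 rose in replicate 1 (spe-11, gsp-3, gsp-4 and msp-3, by 0.63 to 0.83 on the log2 scale), and the summed signal of 7 sperm genes was 10861 to 14994 in replicate 1 and 6001 to 11443 in the others. Of 6 cuticle genes 3 rose, of 6 intestinal genes 2, of 5 muscle genes 1, and of 8 oocyte genes 1 fell. Over all probe sets tested, 10.8% were called higher in replicate 1 and 7.36% lower. These lists are short, so their counts were not tested against those shares. The sums of all 5 lists overlapped between replicate 1 and the rest, with 40697 to 47199 and 27490 to 47658 for cuticle, 49525 to 61951 and 47256 to 57756 for intestine, 25767 to 27753 and 20844 to 28317 for muscle, and 42449 to 54678 and 43588 to 51703 for oocytes. The part of these tissues in the hsp-70 and hsp-3 results was not tested.

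By exposure, 1 of 30 tested marker genes was called, ifb-2, an intestinal intermediate filament gene, which fell in the culture by 0.56 ± 0.13 on the log2 scale (limma adjusted p = 0.0492). Of 6 cuticle genes 0 were positive in the culture, with a median of -0.45, rol-6 at -0.73 ± 0.19 (adjusted p = 0.0713) and a second, dimmer set of bli-1 past the test (-1.46 ± 0.34, adjusted p = 0.0418). Of 5 sperm genes 0 were positive (median -0.58, spe-11 at -0.77 ± 0.34) and of 8 oocyte genes 8 (median 0.16, rme-2 at 0.21 ± 0.08), and the muscle gene of smallest p was unc-27 (-0.16 ± 0.10). Over all probe sets tested in the culture, 1.54% were called and 50.8% were positive. Scaling to equal medians moved the median of all probe sets in that comparison to 0.11, near the oocyte median.

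The summed signals in the culture and in Z-medium were 6001 to 10861 and 8440 to 14994 for sperm, 27490 to 41105 and 40697 to 43487 for cuticle, and 50713 to 54678 and 43244 to 49996 for oocytes. They were 47428 to 61951 and 50355 to 56301 for intestine and 20844 to 27753 and 23757 to 25824 for muscle. The markers of smallest p in August were bli-1 (-0.59 ± 0.35), elt-2 (-0.22 ± 0.14), myo-3 (-0.18 ± 0.16), egg-1 (0.11 ± 0.09) and spe-41 (0.26 ± 0.24). In October they were bli-1 (-0.39 ± 0.35), elt-2 (-0.25 ± 0.14), myo-3 (-0.17 ± 0.16), puf-5 (-0.14 ± 0.14) and gsp-4 (0.18 ± 0.31), each with a limma adjusted p of 1.00. These are 1 gene per list, and the lists held both signs. In August 2 of 6 cuticle, 3 of 6 intestinal, 3 of 5 muscle, 7 of 8 oocyte and 3 of 5 sperm genes were positive. In October the counts were 3 of 6, 1 of 6, 2 of 5, 3 of 8 and 4 of 5 in the same order. Over all probe sets tested, 48.5% were positive in August and 51.1% in October. The part of these tissues in the culture values of the chaperones was not tested.

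Of 6 listed small heat shock protein genes, which HSF-1 is known to induce together with hsp-70, 2 had a probe set of their own symbol and 1, hsp-16.2, was tested. For hsp-16.2 the signals were 395, 23.9 and 95.9 in replicates 1, 2 and 3 of water, 194, 59.8 and 39.0 in Z-medium and 142, 21.3 and 70.1 in August. They were 743, 60.03 and 42.1 in October and 61.7, 115 and 43.9 in the culture, the same order of the replicate 1 arrays as for hsp-70 and again with replicate 2 highest in the culture. The fitted difference of hsp-16.2 in replicate 1 was 2.12 ± 0.46 on the log2 scale (limma adjusted p = 0.00434), and this gene too passed the filter only through replicate 1, with a geometric mean of 50.2 in the other arrays. Its relative hsp-16.41, too dim on average to be tested, gave 275 in replicate 1 of water, 141 in that of Z-medium, 119 in that of August and 588 in that of October. Its other 11 arrays lay between 7.66 and 82.9, the highest again replicate 2 of the culture. For hsp-16.2 and hsp-16.41, too, the culture was set apart after the values were seen. The share of all probe sets with this pattern was not counted.

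**Figure D4:**
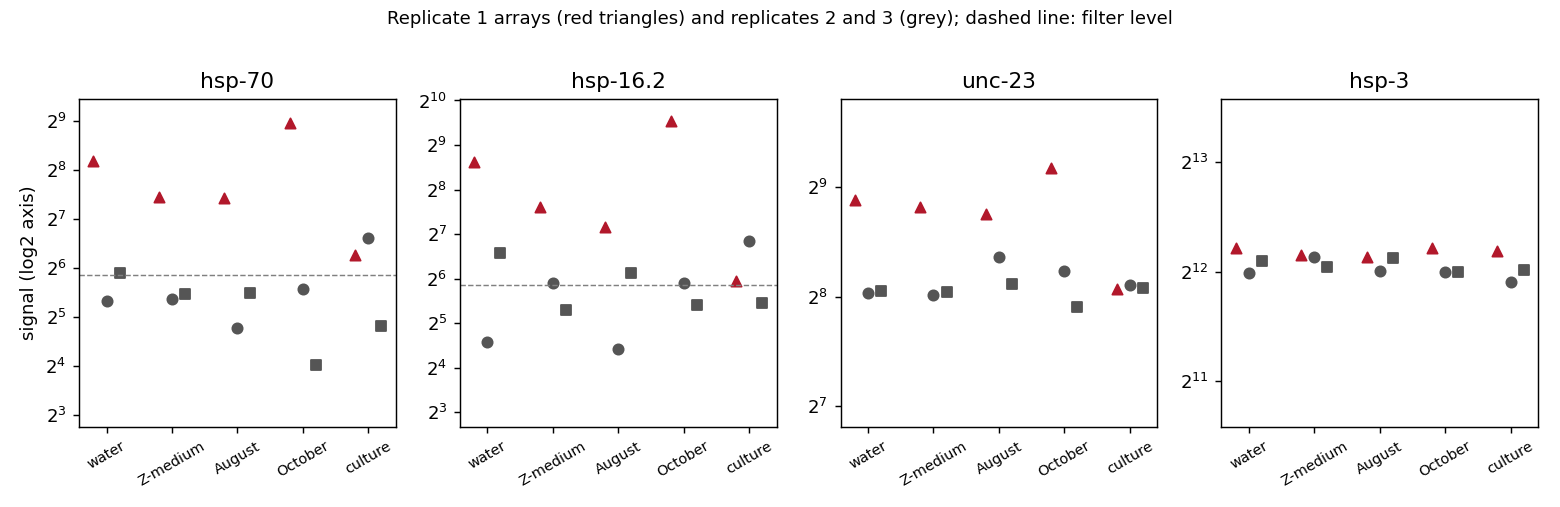
Signal on a log2 axis for hsp-70, hsp-16.2, unc-23 and hsp-3 on each array, with replicate 1 as red triangles and replicates 2 and 3 as grey circles and squares; the dashed line is the filter level of 57.9. For hsp-70, hsp-16.2 and unc-23 the triangle is highest in water, Z-medium, August and October and not in the culture; for hsp-3 the triangle is highest in each group by a small margin.

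Genes that work with these chaperones were counted from lists made for each compartment, on the brightest probe set. Of 14 cytosolic co-chaperone genes, which load clients or drive the ATP cycle of HSP70 and HSP90, 0 were called in August, October or the culture (medians of 0.02, 0.03 and 0.04 on the log2 scale). The genes with the smallest p were fkb-6, an FKBP-type HSP90 co-chaperone, in August (0.25 ± 0.09) and October (0.11 ± 0.09), each with an adjusted p of 1.00, and unc-45, the myosin chaperone that works with HSP90, in the culture (0.21 ± 0.10, adjusted p = 0.367). In replicate 1, unc-23, a BAG-family regulator of HSP70, rose by 0.65 ± 0.12 (limma adjusted p = 0.0012). It gave 433 to 579 in the replicate 1 arrays of the 4 groups without the culture, 239 to 329 on their other arrays and 269 to 275 in the culture. These 4 groups were picked out after the values were seen, and the share of all probe sets separated this way was not counted. The HSP40 gene dnj-13 rose in replicate 1 on a dimmer probe set alone (0.35 ± 0.08, limma adjusted p = 0.00755).

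The CCT chaperonin, which folds actin and tubulin, had 0 of 8 subunit genes called in each exposure, with medians of 0.01, -0.03 and 0.04. The smallest p values were those of cct-3 in August (-0.41 ± 0.22) and October (-0.26 ± 0.22) and cct-1 in the culture (0.15 ± 0.07), with adjusted p of 1.00, 1.00 and 0.329. Of 3 heat shock regulators tested, 0 were called. They were hsf-1 itself, at 0.05 ± 0.19, -0.01 ± 0.19 and 0.09 ± 0.19, and the HSF-1 inhibitor genes hsb-1 (0.25 ± 0.11 in August) and ddl-1 (0.38 ± 0.15 in October and 0.22 ± 0.15 in the culture). The single tested small heat shock gene of the list, hsp-16.2, had -0.70 ± 1.08, 0.35 ± 1.08 and -0.18 ± 1.08 by exposure.

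Of 20 genes of folding and stress signalling in the endoplasmic reticulum, 0 were called in August, October or the culture, with medians of 0.01, 0.01 and 0.02. The transcription factor gene xbp-1, which the sensor ire-1 activates, had log2 changes of -0.01 ± 0.11, 0.01 ± 0.11 and 0.02 ± 0.11. The smallest p values belonged to the protein disulfide isomerase gene pdi-6 in August (-0.20 ± 0.07), the calnexin gene cnx-1 in October (0.17 ± 0.08) and cdc-48.1, of the p97 segregase, in the culture (0.28 ± 0.09, adjusted p = 0.126 in limma).

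Of 15 mitochondrial folding and import genes, 0 were called in each exposure, and in the culture 2 of 15 were positive with a median of -0.07, where 50.8% of all probe sets were positive. Scaling to equal medians adds about the shift of 0.11 given above to these values. The smallest p values were those of tin-44, an import motor subunit gene, in August (-0.15 ± 0.09), the protease gene spg-7 in October (-0.44 ± 0.21) and atfs-1, the transcription factor of the mitochondrial response, in the culture (0.16 ± 0.09, adjusted p = 0.410). In replicate 1, spg-7 rose by 0.40 ± 0.10 (limma adjusted p = 0.00954). Of 5 tested HSP70 and HSP90 relatives, 0 were called, with T24H7.2 at -0.22 ± 0.11 in August and -0.17 ± 0.11 in October and T14G8.3 at -0.13 ± 0.18 in the culture. That list also held trap-1, a translocon-associated protein gene in the worm, through its name.

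The genes most like 4 of the chaperones were ranked by Pearson correlation of log2 signal over the 15 arrays, which share groups and the replicate 1 difference. For hsp-70 these were ZK1290.5 (r = 0.961), cest-24 (0.933) and hsp-16.2 (0.925). For hsp-90 they were the ribosomal protein genes rps-10 (0.939), rpl-36 (0.931) and rps-9 (0.917). For hsp-4 they were set-15 (0.847), eif-1.A (0.845) and axl-1 (0.826), and for hsp-6 W02D9.6 (0.874), dot-1.3 (0.730) and F28C6.5 (0.722). Between chaperones, hsp-1 and hsp-90 of the cytosol correlated at 0.736 and hsp-70 and hsp-3 of different compartments at 0.654. The other cytosolic pairs ran from 0.00915 (hsp-70 and hsp-110) to 0.432 (hsp-1 and hsp-70). In the endoplasmic reticulum the pairs gave -0.079 for hsp-3 and hsp-4, 0.211 for hsp-4 and enpl-1 and 0.314 for hsp-3 and enpl-1, and in mitochondria hsp-6 and hsp-60 gave 0.10.

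The spread over all 15 arrays set hsp-70 apart from the other members. The SD of log2 signal was 0.053 for the brighter set of hsp-90, less than in all but 0.273% of tested probe sets, 0.078 for hsp-1 (3.16%) and 0.115 for hsp-4 (16.6%). The median was 0.191 over all tested probe sets and 0.114 over the brightest 10% of them. The brighter set of hsp-110 had 0.251, above 68.1% of probe sets, and hsp-70 had 1.37, above 99.9%, with a 30.6-fold range between its highest and lowest array. Of the brightest 10% alone, 1.85% had a smaller SD than hsp-90, 14.7% than hsp-1, 50.8% than hsp-4 and 93.6% than hsp-110. The hsp-70 signal lay below the filter level on 8 of the 15 arrays, which limits its rank.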

How the data were processed

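RNA of 15 worm samples was measured on arrays. The deposited values are linear probe set intensity, which the authors made with Affymetrix Expression Console 1.2.0.20 (MAS5), per the submitters' processing notes. The mean of each array after trimming 2% at each end was 500.12 to 500.14, so the arrays had been scaled alike. Of 22625 probe sets, 77 controls were left out, and 20766 had 1 symbol, of which 20701 matched a current gene ID. Coordinates are not given, as the array's genome build is not given in the sources used here. The number of arrays limits the precision.

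Signals were taken to log2 and fitted with a mean per group in limma 3.58.1 (R 4.3.3, lmFit and eBayes with intensity trend, 10 residual degrees of freedom). The replicate 1 fit added a term for replicate 1 to the group means. Errors of changes are standard errors, and intervals cover 95%. The code was tested on simulated data. Members, gene lists and tests were chosen with earlier results of these data known. Named genes were each chaperone, the members of other lists past the test or of smallest p in a main comparison, and the 3 nearest by correlation to 4 chaperones. Genes named for replicate 1 were chosen after their values were seen. Same-numbered arrays deviated together for August and water (correlations 0.534, 0.200 and 0.311), October and August, and Z-medium and water, but not for October and water (0.0644 for replicate 2) or the culture and Z-medium (-0.0325). Alternatives changed normalization, filter, offset, trend, samples, replicate terms and probe set choice.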

Additional observations from a re-analysis of the deposited data

Results flagged for a closer look

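The dimmer probe set of hsp-110 lay lower in all 3 August arrays than in all 3 water arrays (log2 change -0.0264) and higher in all 3 culture arrays than in all 3 Z-medium arrays (0.12). The difference between these 2 effects alone was not tested. The culture effect minus the mean of both lake effects was 0.13 ± 0.08 on the log2 scale (limma adjusted p = 0.687). Of all probe sets, 3.87% lay lower in all August arrays and 7.85% higher in all culture arrays in this way. The brighter set of hsp-110 had 0.24 ± 0.15 in August and 0.16 ± 0.15 in the culture, and overlapped the control in both.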

How the results depend on the processing

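In the 6 comparisons of exposures and controls, 0 of 993 chaperone values on brighter or only probe sets passed the test under any alternative (limma, lowest adjusted p = 0.147, for hsp-60 in the culture without culture replicate 1), among them the fits with replicate number as a block, which called 0 chaperones on any of the 14 sets (lowest adjusted p = 0.0989, the dimmer set of hsp-6 in the culture). Of these values 95 had another sign than reported, with neither past the test. With the replicate block all probe sets called in the culture went from 209 to 1245, in the culture effect minus the lake effect from 36 to 480, in August from 1 to 2 and in October from 0 to 2, and cdc-48.1, rol-6 and spe-11 passed in the culture (adjusted p = 0.0408, 0.000398 and 0.00305). A term for replicate 1 gave 1201, 431, 2 and 3. Without the 5 replicate 1 arrays the first pair of counts was 534 and 106, and October against August 5 against 2. Fitting only the groups compared gave 117 in the culture. Leaving out 1 array gave 89 to 229 in the culture, with 89 for Z-medium replicate 1, 92 for either replicate 2 and 100 for culture replicate 3, and 21 to 45 for the difference of effects, 21 for water replicate 3. Counts of 5 or fewer in the other comparisons moved between 0 and 5. The count of chaperones called in replicate 1 was 2 and became 1 with median scaling, without an intensity trend, with a 60th percentile filter (hsp-70 was then not tested) and, among alternatives chosen after the data were seen, without the water, October or culture arrays, and it was 1 to 2 with 1 array left out. All probe sets called in replicate 1 went from 2451 to 1606, 1570 and 1628 without the water, Z-medium and August arrays, and to 1543 and 1609 without replicate 1 of Z-medium and of August. Signals near or below the filter level, as those of hsp-70, limit the precision of its changes.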
